A study of Mus musculus with 35 samples.

Results

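Brown adipose tissue of female mice that lacked the histone methyltransferases Suv420h1 and Suv420h2 was compared with that of control mice after a high fat diet. The comparison holds 10 of the 35 libraries of the series, 5 from Suv420h double knockout mice and 5 from mice labelled control, chosen by their titles. All 10 came from animals aged 21 weeks that had eaten a diet with 45 kJ% fat for 14 weeks. The other 10 libraries of the same experiment are from female control and knockout mice of that age on normal diet for 14 weeks (5 each). A separate experiment holds 9 control and 6 knockout libraries from 4-week-old animals on normal diet. The labels used here name neither the strain, nor the alleles or any Cre driver behind the knockout, nor the genotype of the controls beyond that word, nor the number of animals per library.

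Suv420h1 and Suv420h2 add further methyl groups to lysine 20 of histone H4 once it carries a first one. The fully methylated form is a mark of compacted chromatin. Brown fat burns fatty acids in mitochondria that are uncoupled by UCP1, and PPAR-gamma is the nuclear receptor that drives fat cell formation and many genes of lipid handling. The title of the study names PPAR-gamma and energy expenditure as its subjects. Each value below is a number of sequenced 3' tags of a gene scaled to the size of its library (CPM), which sets a gene side by side across libraries and does not correct for differences between genes.

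The libraries held between 4679685 and 7565472 counts. High levels of Ucp1 (7054 to 11641 CPM) and Cidea, a lipid droplet protein of brown fat, against at most 18.2 CPM of Lep, the white fat hormone, went with the labelled tissue. Libraries stood apart in 2 ways. Control 3 carried transcripts of skeletal muscle, the 38 markers of which summed to 5605 CPM there against 65.8 to 184 CPM in the other 9 libraries. Control 4, control 5 and knockout 2 separated from the rest on the first principal component, which held 39.4% of the variance. Fabp4, the fatty acid binding protein of fat cells, stood at 3125, 3355 and 3730 CPM in these 3 libraries and between 13971 and 29061 CPM in the other 7. Fabp4 was not alone, as 162 genes lay more than 2-fold lower in all 3 than in every other high fat library. By the same measure, 0 genes lay higher. What sets these 3 apart was not tested, and they are in both genotypes. Nothing in the labels says that the replicates are separate animals, so the p-values cover only how far these samples scatter, and that scatter may be technical.

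**Figure D1:**
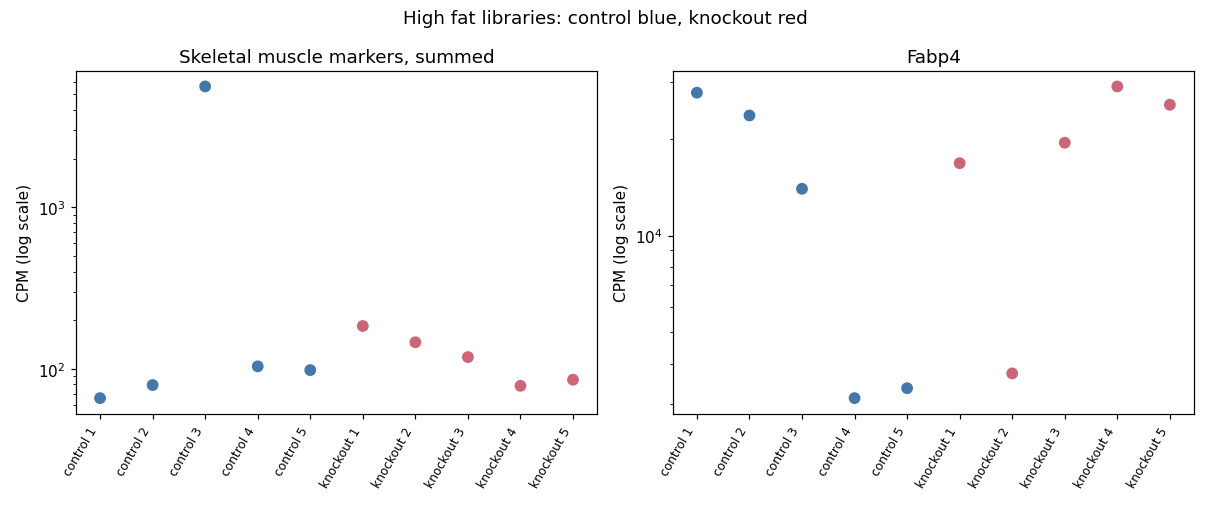
Summed CPM of 38 skeletal muscle markers (left) and CPM of Fabp4 (right) in each high fat library, on log scales, control in blue and knockout in red. Control 3 stands at 5605 CPM of muscle markers and no other library exceeds 184 CPM, while Fabp4 is at most 3730 CPM in control 4, control 5 and knockout 2.

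The targeted genes were examined first. Suv420h2 (annotated as Kmt5c, GRCm38 chromosome 7, 4740115 to 4747514) was measured at 11.5, 7.42, 21.5, 22.7 and 25.2 CPM in controls 1 to 5 and at 4.89, 16.6, 10.8, 9.81 and 10.1 CPM in knockouts 1 to 5. The groups overlapped, and the log2 fold change of knockout over control was -0.76 ± 0.34 (SE), with an adjusted p of 0.913 in edgeR's quasi-likelihood test. On normal diet the same contrast gave -1.48 ± 0.34 with an adjusted p of 0.0218. Suv420h1 (annotated as Kmt5b, chromosome 19, 3767421 to 3818303) lay between 22.7 and 55.4 CPM in the controls and between 32.5 and 51.3 CPM in the knockouts, with a log2 fold change of 0.30 ± 0.24 and an adjusted p of 0.999. A tag near the 3' end need not fall in the deleted part of either gene, so these levels do not check the labels.

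On high fat diet, 12 genes rose and 2 fell in the knockout among 12082 tested, at an adjusted p below 0.05 (0.116% of all genes). Genes whose 5 knockout libraries all lay above the 5 control libraries made up 1.18% of all genes, and those with all 5 below made up 0.927%. The groups did not overlap for any of the 14 called genes. At an unadjusted p below 0.05, 2.37% of all genes were higher and 2.7% lower. In bulk tissue, fewer cells of a type and less RNA per cell cannot be told apart.

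**Figure D2:**
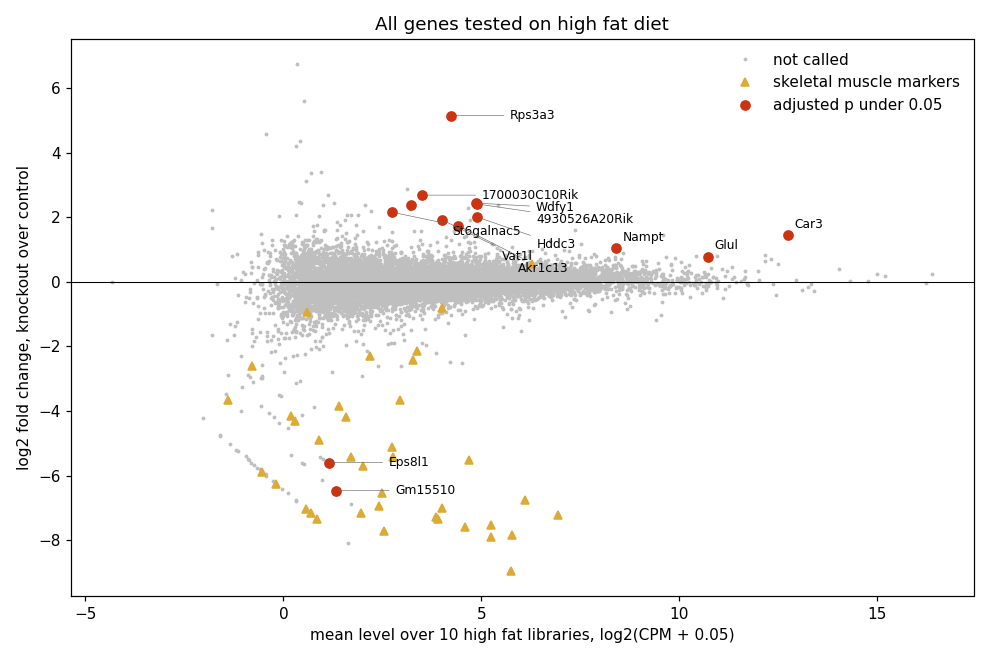
Log2 fold change of knockout over control on high fat diet against the mean level, log2(CPM + 0.05), for the 12082 genes tested. The 14 called genes are red, with most of them named, and the triangles are the 38 skeletal muscle markers, of which 37 lie below 0 without being called.

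The called increases with a known part in metabolism were led by Car3, carbonic anhydrase 3, an abundant cytosolic enzyme of fat cells (chromosome 3, 14863512 to 14872523). Its level was 4405, 4242, 1958, 3716 and 4319 CPM in controls 1 to 5 and 6560, 14515, 10352, 9725 and 9283 CPM in knockouts 1 to 5. The lowest knockout library stood above the highest control, and control 3, which held the muscle transcripts, was the lowest of all. The means were 3728 ± 1025 and 10087 ± 2868 CPM (SD, n = 5 each), a 2.71-fold rise. In edgeR's test its log2 fold change was 1.44 ± 0.22 with an adjusted p of 0.00199.

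Nampt encodes the rate-limiting enzyme of the NAD salvage pathway and is also secreted (chromosome 12, 32819545 to 32853349). It was measured at 235, 233, 252, 185 and 209 CPM in the controls and at 345, 489, 401, 539 and 505 CPM in the knockouts. All knockout values lay above all control values, at 2.05 times the control mean, with a log2 fold change of 1.03 ± 0.20 and an adjusted p of 0.0284. Glul, glutamine synthetase, which joins ammonia to glutamate (chromosome 1, 153899944 to 153909723), rose from 1249 ± 103 to 2147 ± 338 CPM. Its control libraries spanned 1117 to 1353 CPM and its knockout libraries 1695 to 2641 CPM. The log2 fold change of Glul was 0.78 ± 0.16, the smallest of the 14 in size, with an adjusted p of 0.0284.

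Akr1c13, an aldo-keto reductase (chromosome 13, 4191150 to 4205596), stood at 6.58, 13.1, 15.9, 6.06 and 7.74 CPM in the controls and at 35.3, 20.02, 36.3, 39.5 and 33.1 CPM in the knockouts. Its log2 fold change was 1.73 ± 0.30 (adjusted p = 0.00798), and tags of the closely related Akr1c genes may be divided between them by the counting. St6galnac5, a sialyltransferase of gangliosides (chromosome 3, 152817081 to 152982246), rose from 2.44 ± 1.19 to 10.95 ± 3.14 CPM, with a log2 fold change of 2.15 ± 0.41 and an adjusted p of 0.0226. Vat1l, a relative of the vesicle amine transport protein VAT1 (chromosome 8, 114205612 to 114374071), rose from 6.76 ± 2.26 to 25.4 ± 5.75 CPM, with a log2 fold change of 1.91 ± 0.33 and an adjusted p of 0.0076.

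Wdfy1 and Hddc3 differed by similar amounts on both diets. Wdfy1, an endosomal WD-repeat and FYVE-domain protein (chromosome 1, 79702262 to 79776143), was measured at 10.6, 5.65, 12.5, 7.5 and 9.29 CPM in the controls and at 44.6, 41.5, 43.2, 49.99 and 67.8 CPM in the knockouts. Every knockout value was more than 41 CPM, and every control value less than 13 CPM. Its log2 fold change was 2.43 ± 0.33 with an adjusted p of 0.000335. Hddc3, a hydrolase of guanosine tetraphosphate-type nucleotides (chromosome 7, 80343104 to 80350547), stood between 9.19 and 12.9 CPM in the controls and between 30.9 and 64.6 CPM in the knockouts. Its log2 fold change was 2.01 ± 0.27 with the same adjusted p of 0.000335.

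Among the called increases, 3 are not protein-coding in the annotation. Rps3a3, annotated as a processed pseudogene in the family of ribosomal protein S3A (chromosome 13, 108670603 to 108671397), was near 1 CPM in every control library (0.774 to 1.19 CPM) and at 29.7, 21.98, 48.9, 37.3 and 43.6 CPM in the knockout libraries. It had the largest called increase, 5.15 ± 0.61 on the log2 scale (adjusted p = 0.000227). Its tags may come from its near-identical parent gene, so its level is uncertain. 4930526A20Rik, a transcribed processed pseudogene on chromosome 17, rose from 9.32 ± 1.52 to 49.6 ± 21.2 CPM, and the non-coding transcript 1700030C10Rik on chromosome 12 rose from 3.02 ± 2.38 to 19.7 ± 7.18 CPM.

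Both called decreases were near losses of the transcript. Eps8l1, a relative of the actin regulator EPS8 (chromosome 7, 4460674 to 4480487), was measured at 3.71, 3.89, 2.67, 3.51 and 7.74 CPM in the controls and at 0.188, 0, 0, 0 and 0.168 CPM in the knockouts. The counts were 124 over the 5 control and 2 over the 5 knockout libraries, a ratio of 64.0 after scaling (95% interval 17.3 to 534, counting error only; adjusted p = 0.00329). Gm15510, an antisense transcript (chromosome 7, 5046949 to 5057116), had 147 counts in control and 1 in knockout libraries, a ratio of 152 (26.8 to 6031; adjusted p = 0.00048). On normal diet, the knockout libraries held 0 counts of either transcript, against 149 of Eps8l1 and 114 of Gm15510 in control.

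Both decreased transcripts lie near Suv420h2. Eps8l1 ends 259.6 kb before it, and the nearer edge of Gm15510, which is on the minus strand, lies 299.4 kb after it. Within 1 Mb of Suv420h2, 27 genes were tested and 2 were called, these 2, and the median log2 fold change of the 27 was -0.10. Of the other 864 genes tested on chromosome 7, 1 was called, Hddc3. Within 1 Mb of Suv420h1, 35 genes were tested and 0 called (1 at an unadjusted p below 0.05), with a median of -0.02. Whether the neighbouring position has a part in the loss was not tested.

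**Figure D3:**
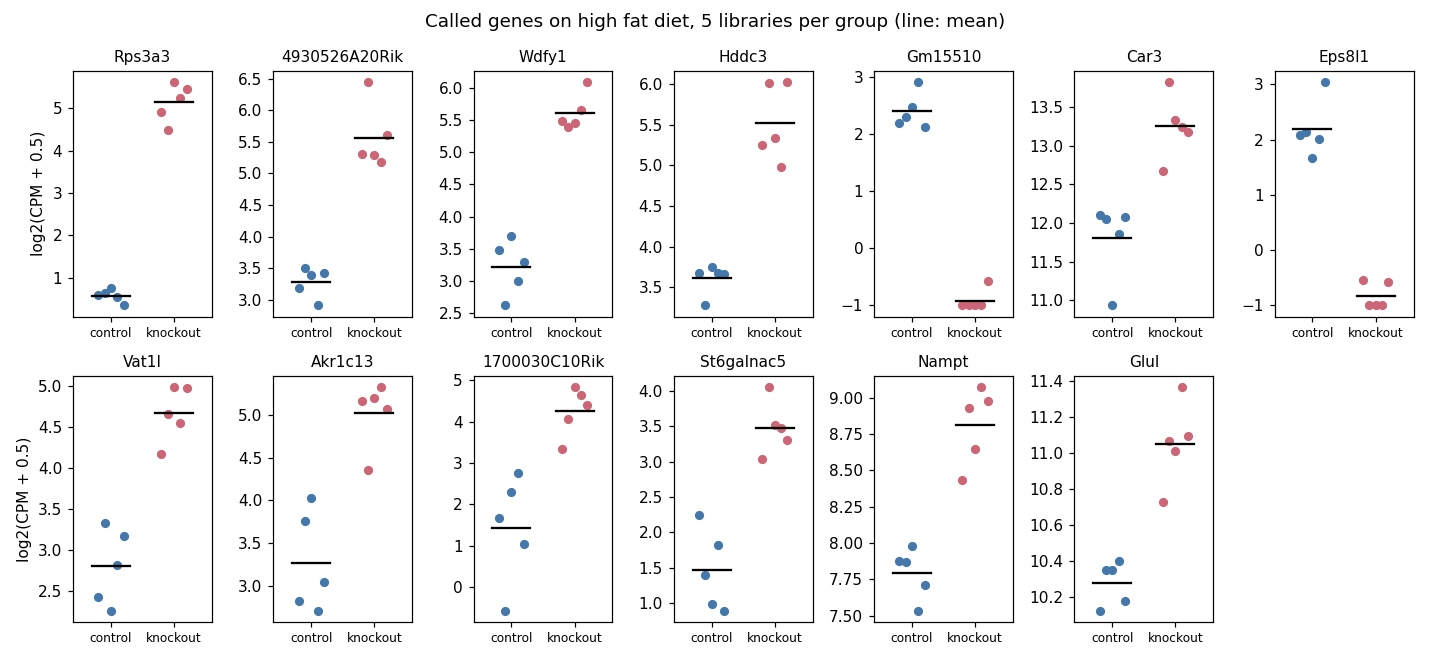
Level of called genes, log2(CPM + 0.5), in the 5 control (blue) and 5 knockout (red) libraries on high fat diet, each point a library and each line the group mean. The groups do not overlap in any panel, and Gm15510 and Eps8l1 lie at or near 0 CPM in the knockout.

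The promoters of 3 called increases are shown, 2 with a motif match and 1 metabolic gene without, picked after the matches were known. They are the 250 bases before the start in the RefSeq table of promoters (GRCm38.p6), in which 8 of the 14 called genes have an entry. Capitals mark matches to ACANNNTGT, a glucocorticoid-type palindrome. The other motifs searched on both strands were CACGTG, the E-box bound by clock factors, and CAAAGGT, the letters of a PPAR-type direct repeat core. They read, 5′ to 3′ on the strand of the gene:
Glul promoter: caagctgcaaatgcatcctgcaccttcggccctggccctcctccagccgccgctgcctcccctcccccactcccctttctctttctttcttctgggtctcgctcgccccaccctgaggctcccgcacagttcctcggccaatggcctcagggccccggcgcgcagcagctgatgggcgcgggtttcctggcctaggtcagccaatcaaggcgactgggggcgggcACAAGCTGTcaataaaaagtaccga
Hddc3 promoter: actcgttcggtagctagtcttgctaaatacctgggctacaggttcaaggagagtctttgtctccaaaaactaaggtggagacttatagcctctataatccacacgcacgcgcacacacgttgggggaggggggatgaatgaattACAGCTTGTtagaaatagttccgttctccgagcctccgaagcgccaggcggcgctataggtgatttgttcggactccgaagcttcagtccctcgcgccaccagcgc
Nampt promoter: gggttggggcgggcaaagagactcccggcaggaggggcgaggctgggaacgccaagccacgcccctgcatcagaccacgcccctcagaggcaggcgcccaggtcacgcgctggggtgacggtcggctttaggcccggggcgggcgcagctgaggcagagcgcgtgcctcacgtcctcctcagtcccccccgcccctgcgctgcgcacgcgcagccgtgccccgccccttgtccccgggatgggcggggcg
Glul (chr1:153899679-153899928, plus strand) and Hddc3 (chr7:80342887-80343136, plus strand) held 1 match each to the palindrome, and Nampt (chr12:32820085-32820334, plus strand) held 0 matches to any of the 3 motifs. The Nampt window follows the RefSeq start and lies inside the GENCODE span of the gene, which starts at 32819545. The bases before that GENCODE start were not searched. Over all 8 called genes with an entry, 3 held the palindrome (the third was Eps8l1, in 1 of its 3 entries) and 0 held either other motif, and 5 held no match. Among all 32851 promoter windows of that length, 5.84% held the palindrome, 6.02% the E-box and 3.54% the PPAR-type letters. These shares are per window, whereas a called gene was counted if any of its entries matched, so the 2 are not like measures. A match is a description of the letters and not a bound site.

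Several calls depended on the libraries included. Leaving out 1 high fat or normal diet library at a time, 9 of the 14 genes passed in all 20 fits. The others included 1700030C10Rik (19 fits; 0.0507 without control 1), St6galnac5 (14 fits), Nampt (12 fits) and Glul (11 fits), whose highest adjusted p were 0.0944 without control 3, 0.132 without control 4 and 0.159 without knockout 4. Without control 4, control 5 and knockout 2, 8 genes were called, all among the 14. Eps8l1, Vat1l and Akr1c13 then had an adjusted p of 0.0909, St6galnac5 0.399, Nampt 0.438 and Glul 0.254.

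None of the core genes of brown fat passed the test on high fat diet. Ucp1 was measured at 11641, 11580, 7960, 8780 and 7792 CPM in the controls and at 11089, 7054, 7167, 7176 and 7367 CPM in the knockouts. The groups overlapped (log2 fold change -0.26 ± 0.21, adjusted p = 0.999). Pparg stood at 62.6 ± 15.6 CPM in the controls and 64.8 ± 23.7 CPM in the knockouts, with a log2 fold change of 0.05 ± 0.29, and knockout 2 was the lowest of the 10 at 23.9 CPM. On normal diet its log2 fold change was 1.02 ± 0.29 (adjusted p = 0.0557).

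The other core genes also overlapped between the groups. The coactivator gene Ppargc1a gave a log2 fold change of -0.01 ± 0.40, the lipid droplet gene Cidea 0.06 ± 0.23 and the deiodinase gene Dio2 0.51 ± 0.43. Prdm16, the regulator of brown fat identity, gave -0.19 ± 0.23, and Elovl3, a fatty acid elongase, 0.29 ± 0.22. Among secreted products, Adipoq gave 0.31 ± 0.17 and Lep -1.49 ± 0.91, and Fabp4 gave 0.40 ± 0.69. All had an adjusted p of 0.999, which does not show that they were equal.

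Among the named genes just short of the threshold, Ifi27l2a and Hyi came first (adjusted p of 0.0518 and 0.0588 in edgeR's test). Klf15 and Rbp4 came after them. Klf15, a transcription factor of glucose and amino acid use, was measured at 10.6, 18.2, 14.1, 9.57 and 12 CPM in the controls and at 28.02, 26.99, 30.4, 37.3 and 47.1 CPM in the knockouts. The groups did not overlap, and the log2 fold change was 1.40 ± 0.30 with an adjusted p of 0.0611. Rbp4, the retinol carrier, lay between 48.01 and 111 CPM in the controls and between 181 and 383 CPM in the knockouts (1.61 ± 0.34, adjusted p = 0.07). Both passed on normal diet, Klf15 at 1.25 (adjusted p = 0.0285) and Rbp4 at 1.32 (adjusted p = 0.0407). At 4 weeks of age, where neither was tested, the median of Klf15 was 31.0 CPM in the controls and 18.3 CPM in the knockouts. That of Rbp4 was 51.6 and 115 CPM, and the groups overlapped for both genes.

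The next genes in order of p, 10 in each direction, had adjusted p from 0.0518 to 0.219. Higher in the knockout by value were, besides Klf15 and Rbp4, the interferon-induced Ifi27l2a, Hyi, the GDNF family receptor gene Gfra1, the alcohol dehydrogenase gene Adh1, the iron exporter gene Slc40a1, Midn, the lipase gene Pla2g16 and Ralgds. Among those lower by value were Nipsnap1, Prorsd1, Ttc25, H2-Q10, Sccpdh, Nudt4, the fructose transporter gene Slc2a5, the pentose phosphate gene Rpia and Lamtor4. The groups did not overlap for 8 of the 10 higher and 6 of the 10 lower, beside 1.18% and 0.927% of all genes. These genes were picked by small p in the same libraries, so frequent separation follows from the choice. Gfra1, for example, lay between 0.319 and 4.77 CPM in the controls and between 6.97 and 27.1 CPM in the knockouts (2.86 ± 0.64, adjusted p = 0.0787). Slc2a5 lay between 5.23 and 80.8 CPM in the controls and between 3.68 and 14.5 CPM in the knockouts (-2.51 ± 0.62, adjusted p = 0.218), and the groups overlapped.

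Gene lists were read by their counts and medians, beside a median of -0.01 and 48.3% positive values over all genes. In the list of PPAR-gamma and adipogenesis genes, 33 of 40 tested members had a positive log2 fold change and the median was 0.20. In it 1 member was called, beside 0.116% of all genes. At an unadjusted p below 0.05, 5 members were higher (12.5%, beside 2.37% of all genes) and 1 lower. Lpl, the lipoprotein lipase, lay between 3838 and 5676 CPM in the controls and between 6386 and 7573 CPM in the knockouts, without overlap (0.53 ± 0.21, adjusted p = 0.799).

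In the fatty acid oxidation list, 25 of 30 members had positive values, with a median of 0.15 (0.09 without control 3) and 0 calls. At an unadjusted p below 0.05, 4 were higher (13.3%, beside 2.37% of all genes). Ehhadh, the peroxisomal bifunctional enzyme, stood at 7.26, 19.6, 5.19, 8.62 and 14.3 CPM in the controls and at 15.6, 8.4, 20.1, 59.1 and 103 CPM in the knockouts. The groups overlapped, and knockouts 4 and 5 stood highest. The peroxisome list had 23 of 33 positive, a median of 0.23 (0.11 without the 3 libraries apart) and 0 calls, and the list of thermogenic genes 25 of 34 positive, a median of 0.16 and 0 calls. Irf4, a transcription factor of the thermogenic response, lay between 6.75 and 19.6 CPM in the controls and between 19.9 and 40.9 CPM in the knockouts (1.18 ± 0.32, adjusted p = 0.233).

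Lists of sterol and fat synthesis lay below the median of all genes. Of 24 tested cholesterol synthesis genes, 17 had negative values, with a median of -0.22 (-0.39 without the 3 libraries apart) and 0 calls, and 6 were lower (25% beside 2.7% of all genes) and 0 higher at an unadjusted p below 0.05. Sqle, squalene epoxidase, stood at 8.61, 11.1, 12.8, 13.1 and 8.905 CPM in the controls and at 3.95, 4.11, 4.305, 5.04 and 2.19 CPM in the knockouts. The groups did not overlap (-1.47 ± 0.50, adjusted p = 0.613). The lipogenesis list had 18 of 27 negative, a median of -0.15 (-0.24 without those 3) and 0 calls, and its members pointed both ways: Acly, which makes cytosolic acetyl-CoA, had -1.03 ± 0.35 and Dgat2, which completes triglycerides, 0.61 ± 0.20, both without passing (adjusted p of 0.633 and 0.576).

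The interferon-stimulated list had 29 of 31 negative values and a median of -0.60, with 0 calls. At an unadjusted p below 0.05, 6 members were lower (19.4% beside 2.7% of all genes) and 1 higher, the latter being Ifi27l2a, at 369.8, 630.0, 390.4, 391 and 287 CPM in the controls and 1318, 964, 1332, 859 and 1136 CPM in the knockouts. Irf9, a transcription factor of the interferon response, gave -0.92 ± 0.28 (adjusted p = 0.411) and Gbp3, an interferon-induced GTPase, -1.31 ± 0.40 (adjusted p = 0.427). Antigen presentation genes had 18 of 22 negative values and a median of -0.44, with 0 calls. B2m, the light chain of class I molecules, was highest in control 3, at 340 CPM, against 113 to 200.4 CPM elsewhere, and without control 3 the list's median was -0.20 and that of the interferon-stimulated list -0.47.

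Circadian clock genes had 13 of 17 positive values and a median of 0.45 (0.29 without the 3 libraries apart), with 0 calls, and no source used here gives the hour of tissue collection. Per1 lay between 5.12 and 19.2 CPM in the controls and between 17.1 and 25.1 CPM in the knockouts (0.83 ± 0.33, adjusted p = 0.799). Nuclear-encoded genes of oxidative phosphorylation had 30 of 76 positive values and a median of -0.03 (-0.17 without the 3 libraries apart), with 0 calls. Of 28 genes of histone H4 lysine 20 methylation and related chromatin, 18 were positive, the median was 0.07 (0.16 without control 3) and 0 were called. Adipokines and other secreted factors had 13 of 18 positive and a median of 0.22, and Nampt was the 1 called, beside 0.116% of all genes. The other lists of metabolism, stress and cell cycle with at least 10 tested members had medians from -0.20 (glycolysis, -0.07 without control 3) to 0.20 (antioxidant genes, 0.13 without the 3 libraries apart), with 0 calls.

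Among markers of other cell types, 0 genes were called. Skeletal muscle markers had 37 of 38 negative values and a median of -5.80, with 23 lower at an unadjusted p below 0.05 (60.5%, beside 2.7% of all genes). Ckm, muscle creatine kinase, was at 535 CPM in control 3 and at most 0.461 CPM in the other 9 libraries. Without control 3 the median was 0.11, so the low values of this list came with that library. Macrophage markers had 12 of 20 negative (median -0.10), endothelial markers 11 of 20 (median -0.06) and fibroblast and matrix genes 21 of 33 (median -0.06). Mast cell and neutrophil markers had 6 of 7 positive, with a median of 1.09 (1.15 without control 3, 0.98 without the 3 libraries apart). Of these, Cpa3 (1.36 ± 0.64, adjusted p = 0.94) and S100a8 (1.23 ± 0.73, adjusted p = 0.999) did not overlap between the groups, while Tpsb2 did. Their levels were low. The median of Cpa3 was 1.55 CPM in the controls and 3.54 CPM in the knockouts, and that of S100a8 2.71 and 5.84 CPM. Separation in this direction held for 1.18% of all genes, and these members were named for their small p. The list mixes mast cell and neutrophil genes, and a gain of either cell type was not tested. On normal diet the median of this list was -0.04, with 3 of 7 positive. The haemoglobin gene Hba-a2 lay between 230.4 and 339 CPM in the controls and between 103 and 212 CPM in the knockouts (-0.92 ± 0.27, adjusted p = 0.372), and all 5 tested red blood cell markers were negative.

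**Figure D4:**
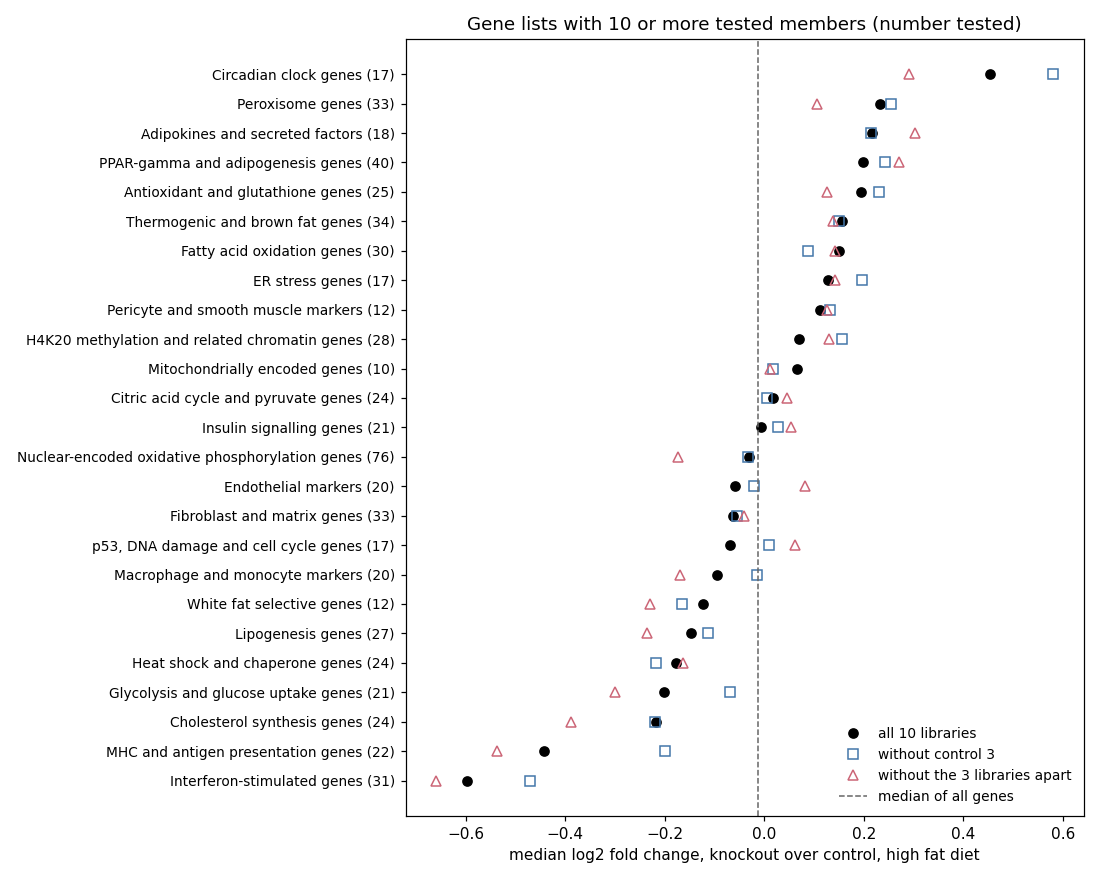
Median log2 fold change of knockout over control on high fat diet for lists with 10 or more tested members, with all 10 libraries (black), without control 3 (blue) and without control 4, control 5 and knockout 2 (red). The dashed line is the median of all genes, -0.01, circadian genes lie highest at 0.45 and interferon-stimulated genes lowest at -0.60, and the skeletal muscle list (-5.80) is not drawn.

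The called genes were then set beside the same contrast on normal diet, which set 10 other libraries of the same model against each other. Both contrasts share the filter, the scaling and each gene's estimated spread, so their calls are not independent. On normal diet 156 genes rose and 164 fell (2.65% of all genes), of which 8 were among the 14. These are 57.1% of the calls on high fat diet and 2.5% of those on normal diet. All 14 had the same sign on both diets. The 8 were Rps3a3, Wdfy1, Hddc3, Gm15510, Car3, Eps8l1, Akr1c13 and 1700030C10Rik. Car3 stood at 3044 to 6163 CPM in the controls and 9289 to 11647 CPM in the knockouts on normal diet. Muscle transcripts were uneven between the normal diet groups too. Ckm lay between 5.96 and 1981 CPM in the controls and between 0 and 188 CPM in the knockouts there. Of the 38 muscle markers, 0 had a positive log2 fold change (median -4.15). With a muscle covariate, 46 genes were called on normal diet, and with its 10 libraries alone 49. This limit holds for every normal diet call given here.

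The 5 genes with the smallest p on normal diet were Ifi27l2a, Rps3a3, Wdfy1, Ivns1abp and Ube2m. Rps3a3 had 6.14 ± 0.73 there, but not every knockout library shared the rise. Normal diet knockout 2 stood at 1.05 CPM, close to the controls (0 to 0.966 CPM), and the other knockouts at 22.2 to 35.8 CPM. On high fat diet Ivns1abp, a Kelch-domain protein, had 0.57 ± 0.17 against 1.33 ± 0.17 on normal diet, and Ube2m, an enzyme of neddylation, -0.49 ± 0.20 against -1.56 ± 0.21. The difference between the diets was tested for every gene and 0 genes passed (0% of 12082; smallest adjusted p 0.170 with edgeR, 772 genes at an unadjusted p below 0.05, and 12 genes called with DESeq2). More calls on normal diet thus do not show a larger effect there.

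**Figure D5:**
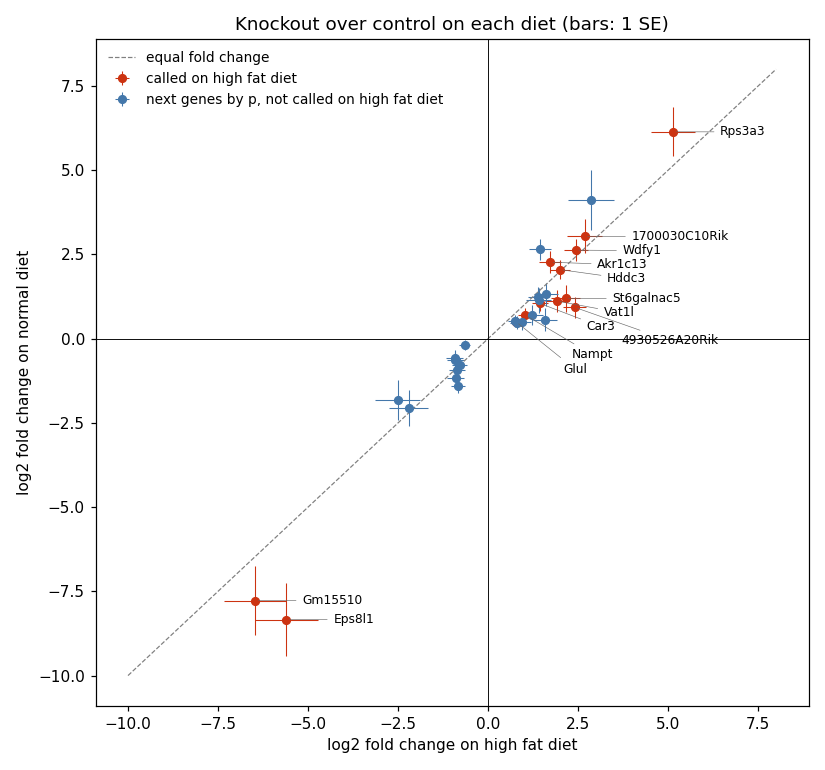
Log2 fold change of knockout over control on high fat diet (horizontal) and normal diet (vertical) with bars of 1 SE, for called genes (red, named) and the next genes by p (blue). Every gene drawn lies in a quadrant of equal sign.

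At 4 weeks of age, in a table filtered and normalised separately, 12 of the 14 genes were kept by the filter on low counts and were not tested here. Gm15510 and 1700030C10Rik were not among the genes kept. Medians differed in the same direction in 11 of the 12, and the groups did not overlap for 5 of them, Rps3a3, Wdfy1, Eps8l1, Akr1c13 and St6galnac5. Among all genes kept by the filter at that age, 0.338% of 10366 were higher in every knockout than in every control library and 0.241% were lower. The sexes were mixed and unequal at that age, with 4 of 9 control and 1 of 6 knockout libraries labelled male, so sex and genotype cannot be fully told apart there. Wdfy1 had a median of 9.66 CPM in the controls (6.98 to 10.8) and of 48.3 CPM in the knockouts (38.2 to 59.98). Glul did not share the direction, with medians of 2161 CPM in the controls and 2062 CPM in the knockouts. Nampt overlapped, with 295 to 564 CPM in the controls and 277 to 917 CPM in the knockouts.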

How the data were processed

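RNA from brown adipose tissue was turned into 3' tag libraries by oligo-dT priming, per the labels' protocols. Per the submitters' processing notes, STAR 2.5.3a, featureCounts and limma were used, on mm10 and GRCm38. No source used here names the annotation or strand setting of that counting, so reads of a gene and its antisense partner may not be separable. The authors deposited raw counts per gene and library. The authors' deposited table of fold changes names no diet and was not used.

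Of 13251 rows, 18 with names turned into dates (0.09% of counts) were left out. Genes were kept with filterByExpr of edgeR 4.0.16 (minimum count 10), which left 12082, and scaled by TMM. All 20 libraries of the experiment entered 1 model with 4 groups, tested with edgeR's robust quasi-likelihood test in R 4.3.3, with Benjamini-Hochberg adjustment over all genes and a threshold of 0.05. Each standard error is the size of the log2 fold change over the square root of F, and CPM use TMM-adjusted library sizes. The procedure was tested on simulated data. Alternatives used DESeq2 1.42.0, limma 3.58.1, other scalings, filters and library sets. Positions are from GENCODE on GRCm38.

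The members and lists were chosen with earlier results of these data known. Genes named are the targeted and core genes, all called genes, the next 10 by p in each direction with a mean of at least 5 CPM, the 5 smallest p on normal diet, and members with the smallest p of each of 33 lists. Some genes that this rule names are not reported here. No pair of libraries of a group agreed within sampling noise (lowest chi-square 8.30 per gene).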

Additional observations from a re-analysis of the deposited data

Results flagged for a closer look

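In groups of 5, a library was marked when its gap to the nearest other was more than 0.71 of the group's range, which chance gives in about 1 group in 20. Of 100 groups examined, 12 held such a library. The summed skeletal muscle markers stood at 5605 CPM in control 3, against 65.8 to 104 CPM in the other controls. Car3 was low in the same library, at 1958 CPM against 3716 to 4405 CPM. Knockout 2 was high for 4930526A20Rik (86.7 against 35.8 to 48.3 CPM) and Suv420h1 (51.3 against 32.5 to 37.7 CPM) and low for Pparg (23.9 against 66.6 to 82.9 CPM). Control 5 was high for Eps8l1 (7.74 against 2.67 to 3.89 CPM) and Suv420h1 (55.4 against 22.7 to 31.2 CPM). Knockout 1 was high for Ucp1 (11089 against 7054 to 7367 CPM) and Rbp4 (383 against 181 to 240 CPM). Knockout 3 was high for Slc2a5 (14.5 against 3.68 to 6.43 CPM). Control 2 was low for Hddc3 (9.19 against 12.2 to 12.9 CPM), and knockout 5 was the only knockout library with a count of Gm15510 (0.168 CPM).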

How the results depend on the processing

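On high fat diet the 14 calls became 73 with DESeq2, 26 with the 10 high fat libraries alone, and, with alternatives chosen after seeing the data, 8 without control 4, control 5 and knockout 2, 224 with a term for these 3 in the 10 libraries, and 0 without these 3 and control 3, which leaves 2 controls. The replicate block gave 13. Deviations of same-numbered high fat libraries correlated between -0.46 and 0.23, and 1 of the 10 libraries correlated best with its own number, so the numbers were not taken to pair the samples. Leaving out 1 library gave 10 to 17. On normal diet the 320 calls became 157 with the replicate block, 46 with a muscle covariate, 146 with limma-voom, 903 with DESeq2, 49 with 10 libraries and 539 without the 3 libraries apart, and ranged from 127 to 888 without 1 library (888 without normal diet control 3). The interaction had 12 calls with DESeq2 and 0 to 2 without 1 library. The cause was not tested. Core genes near 0 changed sign. Pparg had -0.0151 with the block, -0.0313 with limma-voom, -0.20 with the term, -0.018 without the 4 libraries, -0.0363 as a difference of mean log2 CPM, and -0.057 to 0.26 without 1 library. Ppargc1a had 0.00293 with RLE, 0.0557 with the muscle covariate, 0.0743 with limma-voom, 0.00278 with DESeq2, 0.0724 as that difference, and -0.15 to 0.35 without 1 library. Cidea had -0.0913 to 0.13 without 1 library and -0.0547 without the 4, and Fabp4 -0.18 without the 4. An exact two-sided permutation test gave each called gene 0.00794, the smallest value that 5 against 5 allows. Groups that do not overlap always give this value, so it adds no support to the calls. Eps8l1 and Gm15510 rest on 124 and 147 counts over the 5 controls, so their ratios are imprecise.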
